A study of Mus musculus with 18 samples.

Results

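NK-restricted peaks are stretches of chromatin that were open in normal natural killer (NK) cells and less open in normal T and NKT cells of the mouse, and they were followed here in 9 murine peripheral T-cell lymphomas (mPTCL). A peak was a member when the lowest of the 3 NK libraries exceeded the highest of the 3 T and 3 NKT libraries in deposited log2 CPM (counts scaled by library size), and when the NK mean exceeded the larger of the T and NKT means by at least 1. Of 61224 peaks, 2537 met the rule, which is 4.14%. The NK, T and NKT levels of the members were therefore fixed by the choice and are given as a description. The lymphomas, whose values the rule did not use, are the readout. How the 61224 peaks themselves were chosen is not given, so the lymphomas may have had a part in which peaks could become members. The assay was ATAC-seq, in which the transposase Tn5 cuts exposed DNA and adds sequencing adapters to it. All mice had the C57BL/6 background. The lymphomas carried the genotype p53KO: they arose after p53KO T cells had been transferred into syngeneic CD3KO mice, which lack T cells of their own, and their cells were sorted from liver with no sort marker named. The normal cells came from wild-type mice: total T cells (CD3+ thy1+) from spleen, NKT cells (CD3+, positive for the CD1d tetramer loaded with alpha-galactosylceramide) from liver by the tissue label, although their titles name spleen, and NK cells (CD27- CD11b+) from spleen. The lymphomas are numbered 1 to 9, and these numbers are names only.

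NK cells are innate lymphocytes that kill infected or transformed cells without an antigen receptor made by gene rearrangement. They sense their targets through germline-encoded receptors, such as Ncr1 (NKp46) and the lectin-like Klr family, many of which signal through the adaptor chains Tyrobp (DAP12) and Fcer1g and the kinase Syk, and they kill with granzymes and perforin. The CD27- CD11b+ stage is the mature, circulating one in the mouse. NKT cells are T cells that read lipid on CD1d, depend on the transcription factor Zbtb16 (PLZF) and share several receptors with NK cells. T-box, Runx and Ets factors bind at many NK-cell and effector T-cell regulatory regions.

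The libraries differed in depth. Counts in peaks summed to 417107 to 596601 in the NK libraries, 979441 to 2358023 in the T libraries, 1433904 to 9097014 in the NKT libraries and 670358 to 4844441 in the lymphomas, and a member held a median of 4, 6 and 8 counts in NK libraries 1, 2 and 3. Counts in NK were mostly even numbers: 80.5% to 84.0% of the counts above 0 in the NK libraries and 51.2% to 74.1% in the lymphomas were even. An NK level of 2.30 in library 1 or 2.33 in library 2 stands for 2 counts, and a peak with 0 counts is listed at -0.36 in every library. Peaks of the T-cell genes Cd3d, Cd3e, Cd3g, Cd5, Cd6, Cd28 and Lck had their lowest mean of the normal groups in NK for 7 of 7 genes, and peaks of the NK markers had their highest mean in NK for 6 of the 9 genes that had a peak. The mean was higher in T for Eomes (33.7 CPM, against 26.8 in NK) and in NKT for Tbx21 (188, against 77.3 in NK). Prf1 was lowest in NK (63.8, against 81.8 in T and 109 in NKT). S1pr5 was highest in NK by little (51.4, against 50.6 in NKT). Peaks of Cd3e, which encodes a chain of the T-cell receptor complex, summed to 17.7 to 45.9 CPM in the lymphomas, 32.9 to 56.5 in T and 0 to 8.29 in NK. Every NKT library exceeded every lymphoma at Cd3e, with values from 69.9 to 82.5. The lymphoma mean lay between the NK and T means for Cd3d, Cd3e, Cd3g, Cd6 and Lck. For Cd6 it was 31.1 CPM, close to NK (26.2) and far from T (91.7). For the remaining genes it was below the NK mean: Cd5 had 16.2 (NK 16.6, T 73.7) and Cd28 had 50.8 (NK 90.9, T 130). In bulk libraries the share of cells in which a peak is open and its openness per cell cannot be told apart.

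The member peaks at 6 gene starts are shown by the 250 bases before the start site, because the values of these receptor, signalling, effector and homing genes are described below. The sequences are RefSeq's for build GRCm38.p6, written 5′ to 3′ in the direction of the gene: Ncr1 at chr7:4337474-4337723 on the plus strand (232 bases inside the peak), Klre1 at chr6:129577963-129578212 on the plus strand (250 bases inside the peak), Fcer1g at chr1:171234350-171234599 on the minus strand (250 bases inside the peak), Sh2d1b1 at chr1:170277068-170277317 on the plus strand (250 bases inside the peak), Ccl3 at chr11:83649379-83649628 on the minus strand (250 bases inside the peak) and Cmklr1 at chr5:113643604-113643853 on the minus strand (250 bases inside the peak). Capitals mark exact matches, on either strand, to GGTGTG (the core of the site of T-box factors such as Eomes and Tbx21), TGTGGTT (Runx), ACAGGAAG (Ets) or TGANTCA (AP-1).
Ncr1: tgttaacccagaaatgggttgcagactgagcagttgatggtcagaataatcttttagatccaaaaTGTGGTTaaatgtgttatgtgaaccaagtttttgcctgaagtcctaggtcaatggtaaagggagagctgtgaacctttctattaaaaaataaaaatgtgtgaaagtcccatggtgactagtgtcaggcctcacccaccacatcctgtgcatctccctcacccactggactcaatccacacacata
Klre1: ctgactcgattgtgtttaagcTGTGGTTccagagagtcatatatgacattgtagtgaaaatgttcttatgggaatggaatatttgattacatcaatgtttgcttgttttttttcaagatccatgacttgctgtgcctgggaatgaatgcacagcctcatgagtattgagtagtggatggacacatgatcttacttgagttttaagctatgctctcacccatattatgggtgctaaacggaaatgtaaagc
Fcer1g: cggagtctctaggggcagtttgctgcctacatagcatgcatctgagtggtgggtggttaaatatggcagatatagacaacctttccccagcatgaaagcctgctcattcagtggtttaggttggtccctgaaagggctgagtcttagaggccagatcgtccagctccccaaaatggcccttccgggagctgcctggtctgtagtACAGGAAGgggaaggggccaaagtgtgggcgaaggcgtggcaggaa
Sh2d1b1: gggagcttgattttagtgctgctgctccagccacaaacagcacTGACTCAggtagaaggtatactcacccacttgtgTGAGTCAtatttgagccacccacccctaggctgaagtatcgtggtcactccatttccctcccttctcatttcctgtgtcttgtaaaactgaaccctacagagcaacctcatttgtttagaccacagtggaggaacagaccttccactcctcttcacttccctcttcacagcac
Ccl3: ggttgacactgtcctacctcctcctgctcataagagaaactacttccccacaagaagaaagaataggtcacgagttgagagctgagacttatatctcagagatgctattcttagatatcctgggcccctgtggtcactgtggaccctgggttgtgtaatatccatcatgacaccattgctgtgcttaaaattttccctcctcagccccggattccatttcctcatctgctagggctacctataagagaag
Cmklr1: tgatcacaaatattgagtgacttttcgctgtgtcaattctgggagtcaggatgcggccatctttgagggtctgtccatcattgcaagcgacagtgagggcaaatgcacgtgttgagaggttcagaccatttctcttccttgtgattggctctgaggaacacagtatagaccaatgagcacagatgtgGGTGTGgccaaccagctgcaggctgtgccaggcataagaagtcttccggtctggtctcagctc

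A Runx match stood 185 bases before the start of Ncr1 and 229 bases before that of Klre1, an Ets match 46 bases before Fcer1g, AP-1 matches 207 and 173 bases before Sh2d1b1 and a T-box core 63 bases before Cmklr1, while these letters do not occur in the Ccl3 window. Over all start sites, 160 RefSeq windows of 300 bases (250 before to 50 after a start) had at least 150 bases inside a member peak. The T-box core occurred in 27.5% of them, against 17.4% and 19.0% of the 10968 windows that overlapped any peak as much and of all 31396 windows. Runx letters were in 7.50% of them, against 3.75% and 5.32%, Ets letters in 5.62% of them, against 3.62% and 3.62% and AP-1 letters in 6.88% of them, against 4.60% and 7.84% of these sets. The full T-box sequence AGGTGTGA, which contains the core, was in 0.625% of them, against 0.821% and 1.29%. Letters of TCF/LEF (CTTTGAA) were in 4.38% of them, against 3.09% and 5.09%, of GATA factors (AGATAA) in 5.62% of them, against 5.10% and 11.2%, of the E-box (CAGCTG) in 16.9% of them, against 14.4% and 16.3%, of STAT factors (TTCNNNGAA) in 5.62% of them, against 6.43% and 8.35% and of the CTCF core (CNAGNTGGC) in 6.25% of them, against 7.13% and 5.47%. Windows of the same gene overlap, so these shares are descriptions, and a match is not a bound site.

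Members lay away from gene starts more often than peaks at large. By the deposited annotation of 500-base peaks 16.9% were promoter peaks, against 32.6% of all peaks, 40.0% were intronic, against 31.7%, and 21.5% were intergenic, against 15.7%. Of the 2537 members, 1991 carried a gene symbol; these named 1699 genes, of which 1431 had 1 member. Without the required difference of 1, 2948 peaks separated NK from T and NKT. The members nearest the limit were an intergenic peak on chromosome 15 with a difference of 1.005 and an intronic peak of Sh3glb1 with 1.006, and the nearest peaks outside were an intronic peak of Tbc1d2b and the promoter of Emid1, each at 0.999.

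At these members the lymphomas lay between NK cells and the T and NKT cells. Mean CPM over the members was 2.70, 3.22 and 3.30 in the T libraries, 2.14, 2.68 and 3.06 in the NKT libraries and 13.9, 17.2 and 18.6 in the NK libraries. The lymphomas ranged from 7.71 (mPTCL 3) to 10.7 (mPTCL 2), with a mean of 8.87 ± 0.983 (SD, n = 9). Every lymphoma exceeded every T and NKT library, and every NK library exceeded every lymphoma, in this mean. The order of the normal groups follows from the rule. The gap between NK and the lymphomas also leans by the choice, because the NK libraries chose the members. At peaks chosen without NK library 1, 2 or 3, 6, 1 and 0 of the 9 lymphomas exceeded that library, as given below. A lymphoma exceeded all 6 T and NKT libraries at 59.4% (mPTCL 3) to 78.0% (mPTCL 2) of members, and reached above the lowest NK library at 36.8% to 55.0%, again in mPTCL 3 and mPTCL 2.

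**Figure D1:**
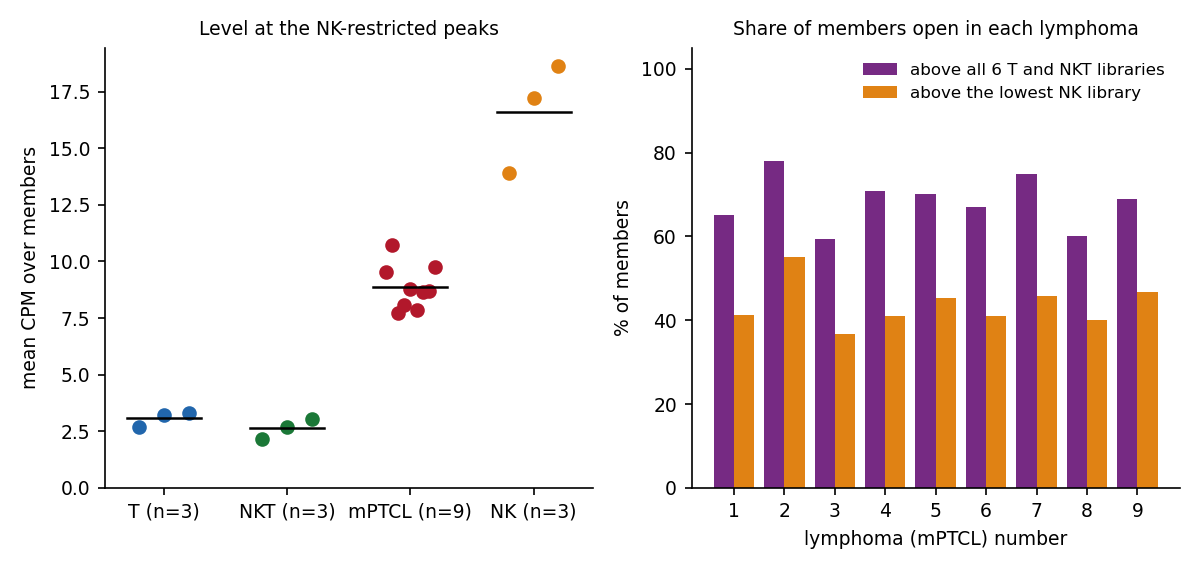
Left, mean CPM over the 2537 members in each library (dots) by group, with the group mean (bar). The 9 lymphomas, between 7.71 and 10.7, sit between the 6 T and NKT libraries and the 3 NK libraries, all of which chose the members. Right, the percentage of members at which each lymphoma exceeded all 6 T and NKT libraries (purple) or the lowest NK library (orange), highest in mPTCL 2 and lowest in mPTCL 3.

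Members differed in the number of lymphomas that opened them. In at least 5 of the 9 lymphomas, 1072 members (42.3%) exceeded the lowest NK library; the same holds for 86.3% of all 61224 peaks, most of which are not high in NK. In at least 5 lymphomas 1949 members (76.8%) exceeded every T and NKT library, against 28% of all peaks. Between 274 and 314 members were at NK height in each number of lymphomas from 0 to 6, with 314 in 0 lymphomas, 300 in 3 and 278 in 6, and 116 were so in all 9. The 116 members open in all 9 were not the highest in NK: their median NK mean was 3.09 on the log2 CPM scale with a median of 14 NK counts, against 4.81 and 47 counts for the 314 open in 0 lymphomas. When only the 1217 members with at least 20 NK counts in sum were taken, 322 were at NK height in a majority of lymphomas. Promoters made up 20.7% of the members open in all 9 and 19.1% of those open in 0.

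**Figure D2:**
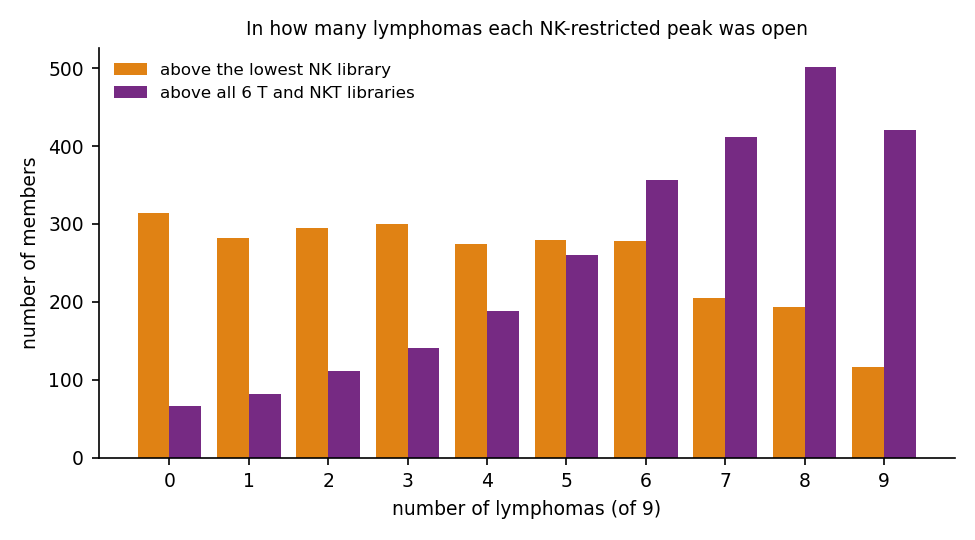
Number of members (vertical axis) by the number of lymphomas, 0 to 9, that exceeded the lowest NK library (orange) or all 6 T and NKT libraries (purple). The orange bars are 314 at 0 and 116 at 9 lymphomas, and the purple bars 66 at 0, 501 at 8 and 421 at 9.

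At other peaks in the same range of T and NKT level, the lymphomas were somewhat lower than at members, with overlapping ranges. The members nearest the median of that level, 1273 peaks with the larger of the T and NKT means between 0.97 and 2.25 log2 CPM, had a mean CPM of 7.17 to 10.0 in the lymphomas and 11.8 to 15.1 in NK. The 10340 peaks outside the set with T and NKT means in the same range had 6.47 to 9.01 in the lymphomas and 4.04 to 6.02 in NK. The lymphoma means were 8.20 ± 0.894 at the members and 7.34 ± 0.772 at the others (SD, n = 9). In the lymphomas these ranges overlap, while in NK they do not, which is what the rule chose. The same 9 lymphomas gave both values, so overlapping ranges do not mean equal levels. Their lowest, mean and highest values were each higher at the members, and the difference within each lymphoma was not tested. The match in level was not exact, since mean CPM in T was 2.34 at the members and 2.82 at the others. The mirrored rules gave 1790 T-restricted and 3052 NKT-restricted peaks. A lymphoma exceeded the lowest library of the open group at 21.7% to 31.2% of the T-restricted and 9.01% to 17.4% of the NKT-restricted peaks, below its share at the NK-restricted ones. The median count of a chosen peak in its open libraries was 6 for NK, 18 for T and 244 for NKT; its part in these shares was not tested. Promoter peaks took 48.7% to 59.1% of the counts in the lymphomas, lowest in mPTCL 2, against 55.3% to 60.4% in NK, 62.5% to 63.5% in T and 59.9% to 64.0% in NKT, and its part was not tested either.

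The order of lymphomas and NK cells was then read in libraries that had not chosen the peaks. With NK library 1 left out, the rule took 5016 peaks, at which that library had a mean of 8.39 CPM, against 16.9 and 17.8 in the NK libraries used and 7.78 to 10.5 in the lymphomas, of which 6 of 9 were higher. NK library 2 had 10.1 CPM at the 4461 peaks chosen without it, and 1 lymphoma was higher. NK library 3 had 12.9 CPM at its 3595 peaks, above all 9 lymphomas. So the gap between NK and the lymphomas in mean CPM was smaller in each left-out library than in those that chose, and in library 1 it was not seen. On the log2 CPM scale it was not seen in library 2 either: the median over peaks of the lymphoma mean minus the left-out library was 0.3, 0.09 and -0.35 for NK 1, 2 and 3. The left-out NK library was at or below the highest T or NKT library at 49.2%, 44.7% and 32.1% of the peaks chosen without it. A limit of at least 20 counts in sum over the 2 NK libraries used was set after seeing the data. It keeps peaks high in the libraries that chose them. The left-out libraries then had 16.4, 24.3 and 32.4 CPM at 1445, 1020 and 645 peaks, and the highest lymphoma had 15.2, 13.6 and 14.5. Each left-out NK library thus stood above all 9 lymphomas in mean CPM there. It was still at or below the highest T or NKT library at 41.3%, 26.4% and 18.9% of these peaks. On the log2 scale the lymphomas lay at -0.17 ± 0.17, -0.88 ± 0.17 and -1.25 ± 0.19 relative to it (mean of medians over peaks, SD, n = 9). At peaks chosen without a T or NKT library, that library had 2.32 to 4.13 CPM and every lymphoma was higher, between 7.44 and 10.7 CPM. This order was not particular to the members. At the 10340 other peaks in the same range of T and NKT level, the lymphomas had 6.47 to 9.01 CPM. There T had 2.44 to 3.11 and NKT 1.42 to 2.14.

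**Figure D3:**
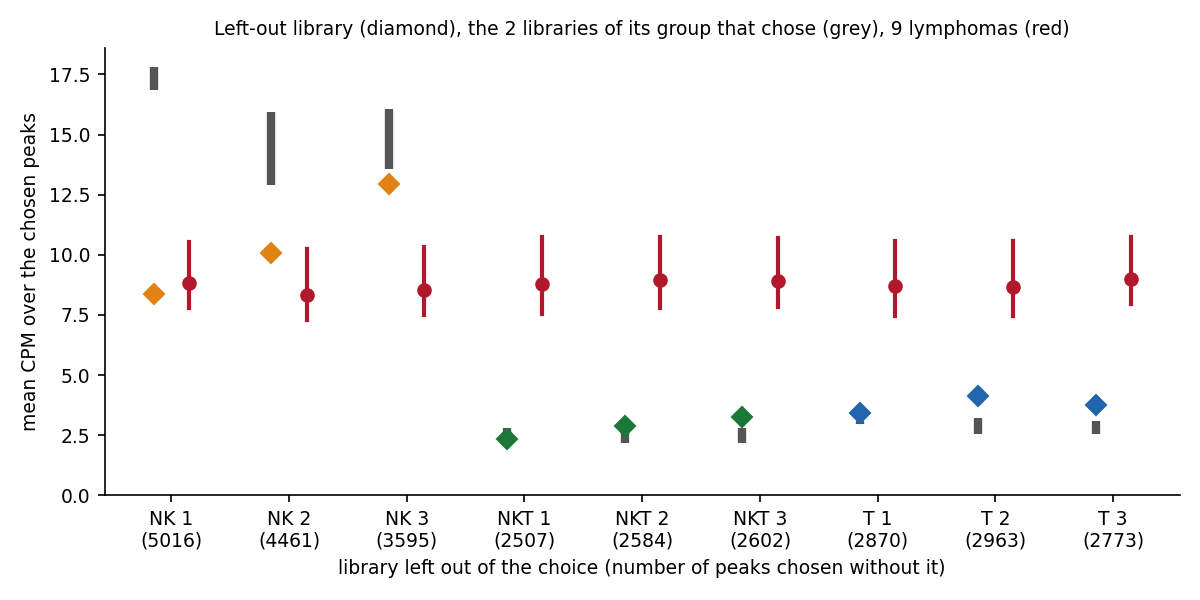
Mean CPM over the peaks chosen by the rule without a given normal library (horizontal axis, number of peaks in parentheses): the left-out library (diamond), the range of the other 2 libraries of its group (grey bar) and the mean and range of the 9 lymphomas (red dot and line). Left-out NK libraries fall below the NK libraries that chose the peaks, while left-out T and NKT libraries lie below every lymphoma.

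Per peak, edgeR's quasi-likelihood test compared the lymphomas with each normal group over all 61220 peaks that passed its filter on low counts, which all 2537 members did. Against NK, 316 members were lower in the lymphomas, where 3.77% of all peaks were called lower, and 1 was higher, where 6.02% were. Against NKT, 1698 members were higher and 12 lower, with 23.2% and 19.4% of all peaks called in these directions. Against T, 803 members were higher and 10 lower, with 8.27% and 11.4% of all peaks. The normal libraries chose the members, so these contrasts lean by the choice and nothing is read from their counts. The median log2 fold change over the members was -0.69 against NK, 2.21 against NKT and 1.74 against T, beside 0.30, 0.27 and 0.26 over all peaks tested. By the same calls 697 members were higher than both T and NKT, of which 668 were not called against NK. Called lower than NK were 138 members also called higher than T or NKT, and 178 that were not. These joint calls lean by the choice too. Their shares among all peaks were not computed, so nothing is read from them. The test against NK has few counts in NK behind it, and its number of calls went from 316 to 135 without NK library 3, while those above NKT went from 1698 to 969 without NKT library 2 and those above T from 803 to 429, 469 and 440 without T library 1, 2 or 3. The labels do not say whether the 3 libraries of a normal group came from separate animals, so the p-values may measure technical spread.

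Against the left-out libraries alone, the same test called far fewer peaks. Lower than NK library 1, 2 or 3 were 36, 79 and 147 of the peaks chosen without it (0.718%, 1.77% and 4.09%), where 0.261%, 0.689% and 1.55% of all 61224 peaks were called lower; 1, 1 and 8 were higher, with a background of 0.0849%, 0.632% and 1.4%. At an unadjusted p under 0.05 the balance was the other way for 2 of the 3: 185, 319 and 390 peaks were lower and 582, 476 and 295 higher than NK library 1, 2 and 3. The median log2 fold change of these peaks was 0.57, 0.38 and -0.12, beside 0.46, 0.56 and 0.31 over all peaks. Higher than NKT library 1, 2 or 3 were 242, 387 and 153 (9.65%, 14.98% and 5.88%), with 3.31%, 2.86% and 1.09% of all peaks. Higher than T library 1, 2 or 3 were 59, 65 and 24 (2.06%, 2.19% and 0.865%), with 0.707%, 0.807% and 0.222% of all peaks. Lower than NKT library 1, 2 or 3 were 6, 5 and 2 of these peaks, with 4.97%, 6.76% and 5.57% of all peaks, and lower than T library 1, 2 or 3 were 5, 4 and 0 (22, 22 and 9 at an unadjusted p under 0.05), with 2.1%, 2.74% and 1.69%. A lone library is assumed here to vary like the others. At an adjusted p the share called in the direction of the rule was above that of all peaks in each of the 9 left-out libraries. For NK this rests on few calls. The chosen peaks are low in T and NKT and all peaks are not matched for that level. For T and NKT the comparison therefore cannot set the members apart from other peaks low in these cells.

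Among the 35 listed NK receptors 25 had a peak, and 5 of their 109 peaks were members: the promoters of Ncr1, Cd244a, Klrb1c and Klre1 and a peak beside Klre1 and Klrd1. The Ncr1 promoter (chr7:4337492-4337992), whose upstream sequence with the Runx letters is printed above, had 3.72, 5.28 and 5.09 log2 CPM in NK, 1.54, -0.36 and 2.87 in T and -0.36, 0.62 and 1.01 in NKT. The lymphomas had a lowest, median and highest level of -0.36, 4.12 and 4.75. All lymphomas except mPTCL 8, which had 0 counts, lay above every T and NKT library, and 6 of 9 above the lowest NK library. The log2 fold change was 4.17 (SE 0.73, edgeR adjusted p = 6.41e-05) against NKT, 2.27 (SE 0.68, edgeR adjusted p = 0.0165) against T and -0.77 (SE 0.55, edgeR adjusted p = 0.406) against NK; the difference from T was not called without T library 1 or 2, nor by limma on cyclic loess values.

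Cd244a, which encodes the 2B4 receptor, had 4.43, 4.15 and 4.05 log2 CPM in NK at its promoter (chr1:171559022-171559522) and 2.31, 3.31 and 4.59 in the lymphomas, with 3.22, 1.75 and 2.78 in T and -0.36, 1.87 and 2.02 in NKT. The lymphomas overlapped the T libraries there, and the difference was called against NKT only, at a log2 fold change of 2.14 (SE 0.56, edgeR adjusted p = 0.00325). Klrb1c, the NK1.1 antigen, had 4.68, 3.21 and 4.31 in NK at its promoter (chr6:128788208-128788708) and 1.74, 3.16 and 3.79 in the lymphomas. T libraries had 1.54, 1.33 and 1.41 and NKT libraries 1.25, 2.49 and 1.5, so the lymphomas lay above every T library and overlapped NKT. Its log2 fold change was 2.0 (SE 0.68, edgeR adjusted p = 0.0336) against T and 1.34 (SE 0.55, edgeR adjusted p = 0.0491) against NKT; the first was lost when any 1 of the T libraries was left out and the second in 6 of 24 alternative fits. The Klre1 promoter (chr6:129577881-129578381), shown above, had 3.72, 4.71 and 3.75 in NK and 2.47, 3.86 and 4.79 in the lymphomas, 5 of which reached above the lowest NK library. T libraries had -0.36, 2.58 and 1.84 and NKT libraries 1.67, 2.24 and 2.61 there, with a log2 fold change of 2.31 (SE 0.65, edgeR adjusted p = 0.011) against T and 1.74 (SE 0.55, edgeR adjusted p = 0.0118) against NKT. Of the 5 receptor members, 0 were called against NK, 5 were higher than NKT and 4 higher than T. The last 2 counts were 3 and 0 in the fits without NKT library 2 and without T library 1. Against NK 12.5% of all members and 3.77% of all peaks were lower. Higher than NKT were 66.9% of all members and 23.2% of all peaks, and higher than T 31.7% and 8.27%. At NK height in a majority of lymphomas were 3 of the 5, beside 42.3% of all members and 86.3% of all peaks.

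At member peaks of several genes that carry the signal of these receptors, among them Lyn, Syk and Fcer1g, every lymphoma had a lower level than every NK library. All 16 listed signalling genes had a peak, and 14 of their 77 peaks (18.2%) were members, at Lyn, Syk, Plcg2, Lat2, Inpp5d, Tyrobp, Clnk, Fcer1g and Sh2d1b1. Summed over all 77 peaks, the lymphomas had 788 to 1016 CPM and NK 946 to 1136, which overlap. T had 706 to 789 and NKT 927 to 1121 in this sum. The promoter of Lyn, a Src-family kinase (chr4:3677932-3678432), had 5.33, 6.05 and 5.09 log2 CPM in NK and 2.96, 3.4 and 4.59 in the lymphomas, with 2.61, 2.08 and 2.56 in T and 1.99, 1.68 and 2.58 in NKT. Every lymphoma lay below every NK library and above every T and NKT library. Against NK it had a log2 fold change of -1.9 (SE 0.4, edgeR adjusted p = 0.00232) and against NKT of 1.71 (SE 0.47, edgeR adjusted p = 0.00475); the difference from T, 1.38 (SE 0.51, edgeR adjusted p = 0.0499), was lost in 11 of 25 alternative fits.

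Syk, the kinase that DAP12 and Fcer1g recruit, had 5.17, 5.57 and 5.28 log2 CPM in NK at its promoter (chr13:52582272-52582772) and -0.36, 2.28 and 4.06 in the lymphomas, below NK in 9 of 9. T libraries had 2.33, -0.36 and 1.41 and NKT libraries 1.25, 0.76 and 1.19, and the lymphomas overlapped both. Against NK the log2 fold change was -2.89 (SE 0.63, edgeR adjusted p = 0.00308), and with TMM within chromosomes -2.46 (edgeR adjusted p = 0.0136). Plcg2, a phospholipase downstream of Syk, had 5.08, 4.71 and 5.02 at an intronic peak (chr8:117527769-117528269) and 0.88, 2.23 and 4.53 in the lymphomas. T libraries had -0.36, 1.33 and 0.78 and NKT libraries -0.36, 0.12 and 0.68 there, so that most lymphomas lay between them and NK. Plcg2 differed from NK by a log2 fold change of -2.06 (SE 0.62, edgeR adjusted p = 0.0291), not called when any 1 of the NK libraries was left out, and from NKT by 3.73 (SE 0.88, edgeR adjusted p = 0.00142).

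Of the 14 signalling members 8 were lower than NK, a contrast whose NK values chose the members, beside 12.5% of all members and 3.77% of all peaks: both members of Lyn and of Tyrobp and 1 each of Syk, Plcg2, Inpp5d and Fcer1g. That is 5 with TMM within chromosomes and 3 without NK library 1. Against NKT 12 were higher, or 7 without NKT library 2, beside 66.9% of all members and 23.2% of all peaks. Against T 8 were higher, or 2 without T library 3, beside 31.7% and 8.27%. Their median log2 fold change was -1.63 against NK, beside -0.69 over all members and 0.30 over all peaks. At the Fcer1g promoter (chr1:171234141-171234641), shown above, NK had 4.9, 4.15 and 4.31 and the lymphomas 1.54, 2.96 and 3.58 log2 CPM, with 1.54, 2.08 and 2.67 in T and 1.25, 1.29 and 1.81 in NKT. All 9 lymphomas were below NK there, with a log2 fold change of -1.73 (SE 0.51, edgeR adjusted p = 0.0264). At the Sh2d1b1 promoter (chr1:170277058-170277558) NK had 2.3, 4.46 and 4.71 and the lymphomas 1.83, 3.02 and 3.86; 7 of 9 lymphomas were above NK library 1 and all 9 below NK libraries 2 and 3. Not called against NK were the other Plcg2 peak, Clnk, Sh2d1b1 and all 3 members of Lat2, a linker protein of Syk signalling; those of Lat2 were all higher than NKT and T, but with TMM within chromosomes 2 of the 3 lost the call against T (edgeR adjusted p = 0.117 and 0.0771), and the calls of the list against T went from 8 to 4. In libraries that had not chosen them, the signalling members again had the lymphomas below NK: the median over 15, 14 and 14 peaks of the lymphoma mean minus the left-out library was -1.56, -1.47 and -1.53 for NK 1, 2 and 3, with the left-out library the higher at 12, 12 and 13 of them. Over all peaks chosen that way the same medians were 0.3, 0.09 and -0.35, as given above. The test against a lone library called 0, 1 and 0 of these signalling peaks.

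**Figure D4:**
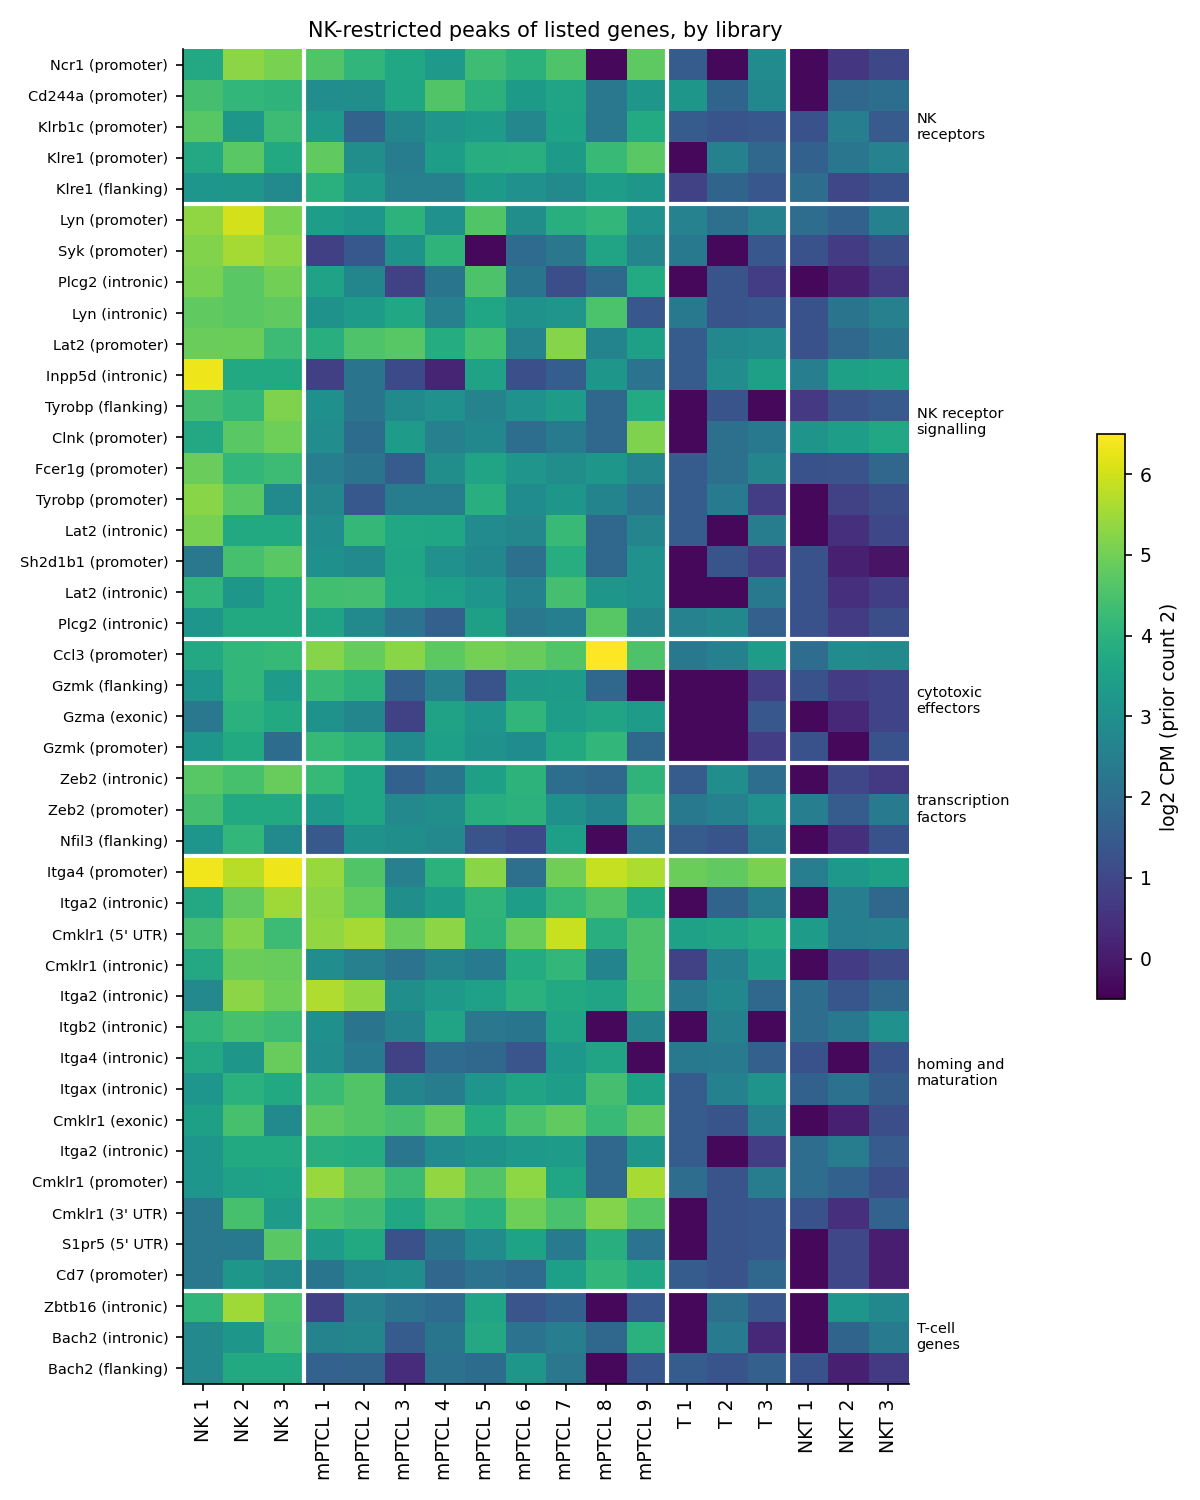
log2 CPM (colour) of every member annotated to the listed NK-cell and T-cell genes (rows, grouped by list and ordered by NK mean) in the 3 NK libraries, 9 lymphomas, 3 T and 3 NKT libraries (columns). The lymphoma columns are darker than NK at most signalling rows, such as Syk and Inpp5d, and as bright as NK or brighter at Ccl3 and most Cmklr1 rows.

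Of 18 listed cytotoxic effector genes 17 had a peak, and 4 of their 74 peaks were members, at Ccl3, Gzma and Gzmk. The Ccl3 promoter (chr11:83649220-83649720), shown above, had 3.72, 4.15 and 4.19 log2 CPM in NK, 2.33, 2.58 and 3.34 in T and 1.99, 2.87 and 2.82 in NKT. The lymphomas had 4.54, 4.88 and 6.81, so that all 9 lay above every normal library. The log2 fold change was 2.48 (SE 0.48, edgeR adjusted p = 0.000443) against T and 2.69 (SE 0.46, edgeR adjusted p = 3.99e-05) against NKT, while against NK it was 1.24 (SE 0.48, edgeR adjusted p = 0.0925) and did not pass. Chromosome 11, on which Ccl3 lies, took more of the lymphomas' counts, as given below. With TMM within chromosomes the log2 fold changes were 0.77 against NK, 2.36 against NKT and 2.1 against T (edgeR adjusted p = 0.323, 0.00012 and 0.00184).

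Gzma, which encodes granzyme A, had 2.3, 3.96 and 3.75 at an exonic peak (chr13:113095279-113095779) in NK, with 17 counts in sum, and 0.88, 3.34 and 4.1 in the lymphomas. Its T libraries had -0.36, -0.36 and 1.41 and its NKT libraries -0.36, 0.3 and 0.91, with all lymphomas but mPTCL 3 above both groups. Gzma differed from NKT by a log2 fold change of 3.65 (SE 0.8, edgeR adjusted p = 0.00074) and from T by 3.31 (SE 0.9, edgeR adjusted p = 0.00853). At a peak beside Gzmk (granzyme K; chr13:113227208-113227708) NK had 3.18, 4.15 and 3.36 and the lymphomas -0.36, 2.54 and 4.24, with a log2 fold change of 3.89 (SE 1.13, edgeR adjusted p = 0.0139) against T and 2.65 (SE 0.86, edgeR adjusted p = 0.0145) against NKT; these calls were lost without T library 1 or 2 and without NKT library 2 or 3. The Gzmk promoter was at NK height in 8 of 9 lymphomas. All 4 effector members were higher than T and than NKT, and 0 were called against NK; 3 were called against T without T library 1 and 3 against NKT without NKT library 2. In limma on cyclic loess values 1 was higher than NKT and 3 than T. Of all members 66.9% were higher than NKT and 31.7% higher than T, beside 23.2% and 8.27% of all peaks.

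Transcription factors of NK and effector cells were scarce among the members: 3 of the 160 peaks of 15 listed genes, at Zeb2 and Nfil3, and none at Eomes or Tbx21. The Zeb2 promoter (chr2:45112832-45113332), which overlaps the antisense gene Zeb2os, had 4.43, 3.75 and 3.75 log2 CPM in NK and 2.67, 3.26 and 4.42 in the lymphomas, with 2.33, 2.58 and 3.04 in T and 2.48, 1.54 and 2.37 in NKT. An intronic Zeb2 peak (chr2:45114652-45115152) had 4.68, 4.46 and 4.87 in NK and 1.66, 3.47 and 4.2 in the lymphomas, below NK in all 9. Zeb2 drives the last step of NK maturation. All 3 members of this list were higher than NKT, 1 of them without NKT library 2, and 0 were called against NK or T. Higher than NKT were 66.9% of all members and 23.2% of all peaks, and higher than T 31.7% and 8.27%. Lower than NK were 12.5% and 3.77%.

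Homing and maturation genes held 14 members among 94 peaks of 17 genes, at Itga4, Itga2, Cmklr1, Itgb2, Itgax, S1pr5 and Cd7. Cmklr1, the chemerin receptor, which NK cells carry, had 5 of them. At its 5′ UTR peak (chr5:113639210-113639710) NK had 4.43, 5.2 and 4.31 log2 CPM, T 3.51, 3.59 and 3.79 and NKT 3.38, 2.53 and 2.58, and the lymphomas 3.88, 4.9 and 5.92. All 9 lymphomas lay above every T and NKT library and 7 above the lowest NK library, with a log2 fold change of 2.43 (SE 0.43, edgeR adjusted p = 6.41e-05) against NKT, 1.49 (SE 0.42, edgeR adjusted p = 0.0107) against T and 0.41 (SE 0.41, edgeR adjusted p = 0.59) against NK. The promoter shown above, which also names Gm15736 (chr5:113643528-113644028), had 3.18, 3.51 and 3.57 in NK and 1.83, 4.82 and 5.6 in the lymphomas, all above NK except mPTCL 8. The 3′ UTR peak (chr5:113613065-113613565) had 2.3, 4.46 and 3.36 in NK and 3.7, 4.49 and 5.21 in the lymphomas, of which 9 of 9 were above the lowest NK library. Chromosome 5, on which Cmklr1 lies, took more of the lymphomas' counts, as given below; with TMM within chromosomes the 5′ UTR peak had log2 fold changes of 1.81 against NKT and 1.02 against T (edgeR adjusted p = 0.000367 and 0.0463).

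Itga2, the collagen receptor chain CD49b on NK cells, had 3.72, 4.82 and 5.5 at an intronic peak (chr13:114907737-114908237) in NK and 2.99, 4.07 and 5.29 in the lymphomas. T libraries had -0.36, 1.75 and 2.45 and NKT libraries -0.36, 2.49 and 1.87, all below every lymphoma. Itga2 differed from NKT by a log2 fold change of 2.51 (SE 0.59, edgeR adjusted p = 0.00145) and from T by 2.65 (SE 0.68, edgeR adjusted p = 0.00552). Itga4, the alpha chain of VLA-4, had 6.35, 5.75 and 6.32 at its promoter (chr2:79255375-79255875) in NK and 2.09, 4.97 and 5.89 in the lymphomas, which overlapped T at 4.93, 4.79 and 5.08. mPTCL 3 and mPTCL 6 were the low ones there. Of the 14 homing members 10 were at NK height in a majority of lymphomas, 11 were higher than NKT, 7 higher than T and 0 called against NK. Over all members these shares were 42.3% at NK height, 66.9% higher than NKT and 31.7% higher than T. Over all peaks they were 86.3%, 23.2% and 8.27%.

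Counts of 0 in these lists rest on few members. Against NK, 1 receptor, 1 transcription factor and 4 homing members were lower at an unadjusted p under 0.05, and 1 effector and 1 homing member were higher. DESeq2 called 0, 0 and 1 of the first kind and limma on cyclic loess values 1, 2 and 4, while both called 0 effector or homing members higher. Against T, 0 of the 3 transcription factor members were higher at an unadjusted p under 0.05, in DESeq2 or in limma. In NK libraries that had not chosen them, the median of the lymphoma mean minus the left-out library was -0.02, -0.17 and -0.34 over 12, 10 and 6 receptor peaks. It was 1.38, -0.39 and 0.98 over 7, 5 and 8 effector peaks and 0.53, -0.19 and -0.78 over 21, 16 and 14 homing peaks. Over 6, 8 and 5 transcription factor peaks it was -0.55, 0.55 and -0.35, and over 5, 5 and 4 peaks of T-cell genes -1.2, -0.62 and -1.99. The medians of the receptor, signalling and T-cell lists were thus below 0 in all 3 libraries, while the sign of the other 3 depended on the library; the difference between the lists was not tested.

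Of the 26 listed T-cell genes, which had 201 peaks, Zbtb16 and Bach2 had 3 members. Zbtb16, the factor on which NKT cells depend, had 4.12, 5.5 and 4.52 log2 CPM in NK at an intronic peak (chr9:48814447-48814947), -0.36, 2.08 and 1.41 in T, -0.36, 3.17 and 2.77 in NKT and -0.36, 1.67 and 3.58 in the lymphomas, all below NK. The log2 fold change was -2.93 (SE 0.66, edgeR adjusted p = 0.00438) against NK, lost without NK library 2. Bach2, a repressor kept in resting T cells, had 2.81, 3.75 and 3.75 in NK and -0.36, 1.74 and 3.21 in the lymphomas at a peak beside the gene, and its 2 members were not called by edgeR in any contrast; at an unadjusted p under 0.05 the list had 2 members lower than NK, 1 higher than NKT and 1 higher than T, and DESeq2 called 1, 2 and 1.

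Markers of other cell types that a liver or spleen sort could hold gave 6 members. B-cell markers had 2 among 13 peaks (Ebf1 and Cd79b), myeloid markers 3 among 13 (Spi1, Csf3r and Mpo), endothelial and stromal markers 1 among 18 (Stab2), and hepatocyte and erythroid markers 0 among 5 and 3. Spi1, which encodes PU.1, had 3.72, 2.33 and 3.36 log2 CPM in NK and 3.21, 4.08 and 5.0 in the lymphomas at a 3′ UTR peak (chr2:91115117-91115617), with a log2 fold change of 3.66 (SE 0.69, edgeR adjusted p = 0.000279) against T. Csf3r, the receptor of granulocyte colony-stimulating factor, lay the other way: its promoter had 4.43, 3.75 and 3.91 in NK and -0.36, 1.45 and 3.35 in the lymphomas, all 9 below NK, and a log2 fold change against NK of -1.99 (SE 0.74, edgeR adjusted p = 0.0818). DESeq2 and limma each called 1 of the 3 myeloid members lower than NK. Stab2 had 5.33, 4.71 and 6.92 in NK and 2.17, 4.13 and 5.72 in the lymphomas at an intronic peak that also names Gm16268, with a log2 fold change of -1.59 (SE 0.47, edgeR adjusted p = 0.0265) against NK, lost without NK library 3 and with scaling within chromosomes. Ebf1 had 4.43, 4.93 and 2.83 in NK and -0.36, 3.06 and 3.64 in the lymphomas at its promoter. Summed over all peaks of the lists, myeloid markers had 121 to 187 CPM in the lymphomas, 141 to 199 in NK, 98.0 to 113 in T and 123 to 130 in NKT; B-cell markers had 93.1 to 177, 84.0 to 153, 69.2 to 85.5 and 45.6 to 50.0. Hepatocyte markers had 31.8 to 82.8 in the lymphomas, 19.0 to 53.9 in NK, 13.8 to 25.7 in T and 4.80 to 18.2 in NKT, with no peak at Alb, Apoa1, Serpina1a or Ttr. The part of such cells in the members' levels was not tested.

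The members furthest below NK in the lymphomas, among the 1480 with a mean of at least 10 counts and a gene symbol, lay near the level of T and NKT. An intronic peak of Plxdc2 (chr2:16682729-16683229) had 7.73, 6.79 and 5.59 log2 CPM in NK and -0.36, 1.04 and 2.17 in the lymphomas, which overlapped T (3.76, 2.58 and 0.32) and NKT (2.48, 1.2 and 1.5); the log2 fold change against NK was -6.34 (SE 0.51, edgeR adjusted p = 5.92e-10). A pair of exonic peaks of Cdc27, a subunit of the anaphase-promoting complex, behaved alike: at the first (chr11:104528170-104528670) NK had 8.21, 7.11 and 5.22 and the lymphomas 1.17, 1.84 and 3.19, and at the second (chr11:104534433-104534933) NK had 6.87, 6.27 and 5.5 and the lymphomas -0.36, 1.54 and 2.1. Their log2 fold changes against NK were -5.52 (SE 0.48, edgeR adjusted p = 2.36e-09) and -5.28 (SE 0.45, edgeR adjusted p = 1.73e-09). At these peaks the 9 lymphomas were all below the 3 NK libraries, and NK library 1 was the highest.

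The non-coding gene D130079A08Rik had an intronic member (chr14:104336877-104337377) with 7.27, 6.58 and 5.28 in NK and -0.36, 1.34 and 3.58 in the lymphomas, and a log2 fold change against NK of -5.57 (SE 0.74, edgeR adjusted p = 9.48e-06). A peak beside Spry2, an inhibitor of receptor tyrosine kinase signalling (chr14:105886527-105887027), had 4.68, 7.0 and 7.24 in NK and -0.36, 1.83 and 5.11 in the lymphomas, with a log2 fold change of -4.07 (SE 0.61, edgeR adjusted p = 5.35e-05) against NK; mPTCL 1 was the only lymphoma within the range of NK. The calls against NK at Plxdc2, Cdc27, D130079A08Rik and this Spry2 peak passed in every alternative fit that tested them.

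At the other end, the 6 members highest in the lymphomas relative to NK, among those with a mean of at least 10 counts and a gene symbol, had few counts in NK. That mean was taken over all 18 libraries, so members with few NK counts passed mostly through the lymphomas. Ppp2r2c, for example, had 472 counts in the lymphomas, 6 in NK, 6 in T and 31 in NKT. The filter thus favours this pattern, and nothing is read from it. An intronic peak of Ppp2r2c, a regulatory subunit of protein phosphatase 2A (chr5:36869652-36870152), had 2.3, 2.33 and 1.98 log2 CPM in NK, 6 counts in sum, and 3.04, 4.4 and 4.7 in the lymphomas, above all 9 normal libraries in 9 of 9. It was the only member called higher than NK, at a log2 fold change of 2.2 (SE 0.67, edgeR adjusted p = 0.0317), beside 3.24 (SE 0.56, edgeR adjusted p = 5e-05) against NKT and 3.65 (SE 0.67, edgeR adjusted p = 0.000221) against T; the call against NK was lost with TMM within chromosomes, with cyclic loess and when any 1 of the NK libraries was left out. Rasgef1a, an exchange factor for Ras-family GTPases, had an intronic peak (chr6:118018527-118019027) with 2.3, 3.75 and 1.98 in NK, 0 counts in all 3 T libraries and 2.96, 4.44 and 5.92 in the lymphomas. Adcy8, an adenylyl cyclase, had 3.18, 2.33 and 2.47 in NK and 2.54, 4.34 and 5.06 in the lymphomas at its promoter (chr15:64922105-64922605). Tmem104, C2cd4c and the non-coding gene 1600002D24Rik completed this set, with lymphoma medians of 4.0, 3.77 and 3.58 and 10, 10 and 6 NK counts. All 6 were higher than T and than NKT, and all but Ppp2r2c were not called against NK. With TMM within chromosomes the log2 fold change against NK went from 1.67 to 1.19 at Adcy8 and from 1.29 to 0.82 at Tmem104. It rose from 1.84 to 2.05 at Rasgef1a, from 1.27 to 1.63 at C2cd4c and from 1.61 to 2.01 at 1600002D24Rik. Ppp2r2c was also the only member higher than all 3 normal groups. Lower than all 3 were the promoter of Tusc1 and an intronic peak of Eef2k, whose lymphoma medians were 2.67 and 2.23, with log2 fold changes of -3.66, -1.51 and -2.2 for Tusc1 and -3.71, -1.65 and -1.72 for Eef2k against NK, NKT and T; the Tusc1 call against NKT was lost in 5 of 25 alternative fits, and both calls against T were lost without T library 2.

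Lymphomas differed more from each other at members than at peaks at large. The SD over the 9 lymphomas had a median of 0.87 log2 CPM over the members and 0.66 over all peaks. The share of counting error in this difference was not tested. The promoter of Tbx3, a T-box factor, was at 6.61 and 6.79 in mPTCL 1 and 2, at 4.7 and 4.34 in mPTCL 4 and 8 and between 1.75 and 2.82 in the others, beside 2.3, 3.21 and 3.12 in NK. An intronic peak of Ikbkb, the kinase that activates NF-kappaB, was at 5.47, 5.34 and 5.45 in mPTCL 5, 6 and 9 and at most 2.23 in the other 6, beside 3.18, 2.33 and 3.36 in NK. Klf12 was high in mPTCL 9 (6.26), 5 (5.25) and 8 (4.34) at an intronic peak that also names 4930517O19Rik and at 0 counts in mPTCL 3. The Ogfrl1 promoter was low in mPTCL 1, 5 and 6 (0.81, 1.32 and 0.72) and between 4.09 and 5.8 in the others. The Chsy3 promoter was at 4.78, 4.69 and 4.54 in mPTCL 5, 8 and 9 and at most 2.3 elsewhere. These peaks thus separated different lymphomas.

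Members crowded in a few windows, singled out after their values were seen. Around Spry2 on chromosome 14 (chr14:105603034-105989056) 10 of 12 peaks were members. Their mean was 19.1 to 66.7 CPM in NK, 33.6 in mPTCL 1 and 0.795 to 6.83 in the other 8 lymphomas, with 3.6 to 4.41 in T and 6.73 to 7.29 in NKT. At the Spry2 promoter mPTCL 1 had 6.53 log2 CPM, above all 3 NK libraries (5.08, 6.18 and 6.23). On chromosome 3 (chr3:95005248-96499937) 63 of 759 peaks were members, with 8.43 to 8.58 CPM in NK, 20.7 in mPTCL 2, 10.9 in mPTCL 1, 10.3 in mPTCL 5 and 2.0 to 3.93 in the other 6. Over all 759 peaks there the lymphomas ranged from 5.25 to 26.0 CPM, against 4.82 to 6.63 in the normal libraries.

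The genes with the most members were Gm20388, a long annotated span on chromosome 8 with 18 members among 235 peaks, Mroh2a with 18 among 50, Trpm8 with 17 among 40 and Stk32c with 7 among 26. Mroh2a and Trpm8 are neighbours on chromosome 1, and from Ugt1a1 through Mroh2a and Hjurp to Trpm8 (chr1:88211950-88310881) 45 of 112 peaks were members. Trpm8 encodes the cold-sensing ion channel and the Ugt1a genes encode enzymes that conjugate bilirubin and drugs. Over the 45 members NK libraries had a mean of 23.5 to 38.5 CPM, the lymphomas 5.01 to 14.3, T 6.48 to 11.0 and NKT 2.17 to 4.20. Against NK 27 of these members were lower in the lymphomas, beside 12.5% of all members and 3.77% of all peaks. Against NKT 34 were higher, beside 66.9% and 23.2%. Against T 0 were called higher by edgeR, beside 31.7% and 8.27%. At an unadjusted p under 0.05 edgeR had 2 higher than T, while DESeq2 called 2 and limma 0. The lymphomas overlapped T across this block and stayed below every NK library. At Stk32c all 7 members were at NK height in a majority of lymphomas, beside 42.3% of all members and 86.3% of all peaks. Their mean was 9.95 to 27.4 CPM in the lymphomas and 11.8 to 16.3 in NK.

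**Figure D5:**
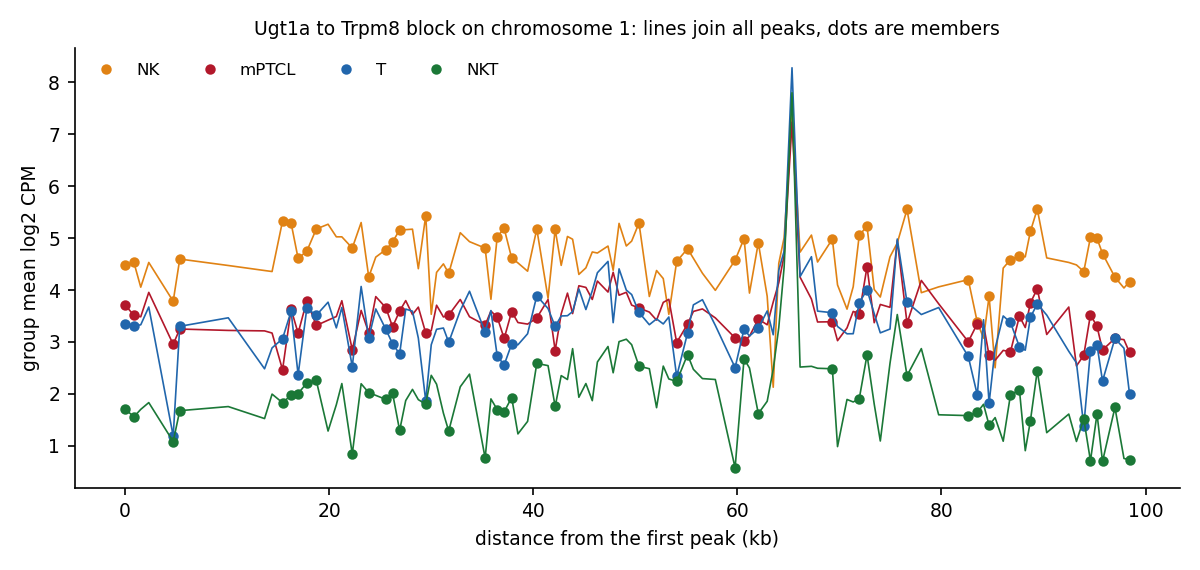
Group mean log2 CPM (vertical axis) of the 112 peaks from Ugt1a1 to Trpm8 on chromosome 1 by distance from the first peak (lines), with the 45 members as dots. At all 45 members NK (orange) lies above the lymphomas (red) and T (blue), which overlap; at some of the other peaks it does not.

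The members highest in NK were the exonic Cdc27 peak above, the promoter of Nfe2l2 (the oxidative-stress factor NRF2), an intronic peak of Nav2 and a 3′ UTR peak of Ssbp2. The Nfe2l2 promoter (chr2:75704485-75704985), which also names E030042O20Rik, had 6.71, 7.24 and 7.71 log2 CPM in NK, 6.53, 5.98 and 5.74 in T, 6.25, 6.1 and 5.92 in NKT and 5.38, 5.89 and 6.37 in the lymphomas, which overlapped T and NKT and were lower than NK with a log2 fold change of -1.31 (SE 0.23, edgeR adjusted p = 0.000414). The Nav2 peak (chr7:49093564-49094064) had 6.07, 7.51 and 7.43 in NK, 2.33, 3.1 and 3.2 in T, 2.85, 2.53 and 2.41 in NKT and 3.4, 5.11 and 5.88 in the lymphomas. All 9 lymphomas lay between the groups there, and all 3 contrasts passed in each alternative fit, at log2 fold changes of -1.91 against NK, 2.86 against NKT and 2.38 against T (edgeR adjusted p = 0.000177, 5.68e-06 and 0.000231). Ssbp2 had 6.07, 7.16 and 7.26 in NK and 3.98, 4.53 and 5.21 in the lymphomas, with a log2 fold change of -2.3 (SE 0.29, edgeR adjusted p = 4.94e-06) against NK. NKT libraries had 5.54, 5.55 and 5.63 there, above all 9 lymphomas, while T libraries, at 2.61, 4.59 and 4.32, overlapped them. Against NKT the log2 fold change was -0.94 (SE 0.29, edgeR adjusted p = 0.0106), lost in 7 of 25 alternative fits.

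Whole chromosomes took different shares of the lymphomas' counts, and members share in this. The mean share of counts in the lymphomas over that in the normal libraries was 1.66 for chromosome 15, 1.38 for chromosome 5 and 1.38 for chromosome 11, and 0.682 for chromosome 13, 0.694 for chromosome 16 and 0.750 for chromosome 10. Chromosome 15 held 221 members, chromosome 5 200, chromosome 11 224 and chromosome 13, with Syk, Gzma, Gzmk and Itga2, 64. With scaling within chromosomes 289 members were lower than NK, 1698 higher than NKT and 778 higher than T, so the counts over all members moved little.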

How the data were processed

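Accessibility was analysed from a table of 61224 peaks in 18 libraries. The authors deposited read counts per peak and library, and log2 CPM values for the same peaks; per the submitters' processing notes MACS2 2.1.2, bedtools and edgeR 3.24.3 were used with build mm10. For the aligner, the duplicate filter, any Tn5 shift and the choice of peaks, the entry is: not given in the sources used here. The deposited log2 CPM differed by at most 0.0005 from values recomputed from the deposited counts with TMM scaling and a prior count of 2, and they chose the members. Whether coordinates count from 0 or 1 is not stated. Peak class and gene symbol are those of the deposited annotation.

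Counts of all peaks were fitted in 1 model of 4 groups with edgeR 4.0.16 (TMM, its default filter on low counts, quasi-likelihood test) and Benjamini-Hochberg adjustment over the 61220 peaks tested; a call is an adjusted p under 0.05. An SE is the log2 fold change divided by the square root of F. The script was tested on simulated data. Alternatives were RLE, library totals, TMM within chromosomes, DESeq2 1.42.0, limma 3.58.1 on cyclic loess values, other count filters, a smaller deposited table of 27727 peaks and each library left out. Named are members of the gene lists (the 3 highest in NK per list in full), the 6 highest and 6 lowest relative to NK and the 6 most variable among lymphomas with a mean of at least 10 counts, the 4 highest in NK, members called the same way against all 3 normal groups and the 4 genes with most members; named beyond this rule, after their values were seen, are the crowded windows and the other members with a printed promoter. One member that the rule names is not reported here. Centre sequences of peaks were not used here, and RefSeq promoter windows stand in their place. The members and lists were chosen with earlier results of these data known. Counting error covers reads, not independent molecules.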

Additional observations from a re-analysis of the deposited data

Results flagged for a closer look

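In 7 of 56 sets of 9 lymphoma values 1 lymphoma stood far from the other 8, with a gap to its neighbour large against the whole range. About 1 in 20 sets of 9 independent, normally distributed values would hold such a gap. That rate does not carry over here, because some sets were picked for their spread over the lymphomas or after their values were seen. The 7 sets are therefore a description. mPTCL 8, the lymphoma with the fewest counts (670358), was the one at 3 promoters. It had 0 counts (-0.36 log2 CPM) at Ncr1, where the others had 3.28 to 4.75, and at Ebf1, where the others had 2.08 to 3.64. At Ccl3 it had 6.81, where the others had 4.54 to 5.25. mPTCL 3, the lymphoma with the lowest mean over the members, had 0.88 at the exonic peak of Gzma, where the others had 2.70 to 4.10, and 0 counts (-0.36) at the promoter of Tusc1, where the others had 2.35 to 4.19. mPTCL 1 had a mean of 33.6 CPM over the 10 members around Spry2, where the others had 0.795 to 6.83. mPTCL 2 had 20.7 CPM over the 63 members on chromosome 3, where the others had 2.0 to 10.9.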

How the results depend on the processing

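The limit is depth in NK, whose libraries hold a median of 4 to 8 counts per member. The rule gave 1128 members with a difference of 2, 664 of the smaller table, 607 with a mean of 20 counts, 1217 with 20 NK counts and 2507 to 5016 with a library left out. Lower than NK were 1044 with cyclic loess, 174 with a mean of 20 counts and 135 to 325 with a library left out; higher than NK were 0 with scaling within chromosomes, cyclic loess or the smaller table, and 0 to 2 with a library left out. Lower than NKT were 6 with RLE, DESeq2 or a mean of 20 counts, 7 with library totals and 5 of the smaller table; higher were 411 with cyclic loess, 451 with a mean of 20 counts, 306 of the smaller table and 969 to 1894 with a library left out. Lower than T were 2 with a mean of 20 counts; higher were 1467 with DESeq2, 447 with cyclic loess, 368 with a mean of 20 counts and 189 of the smaller table. With a library left out 3 to 11 were lower and 429 to 960 higher. Members chosen without a library gave, against it alone, 36 to 147 lower and 1 to 8 higher (NK), 2 to 6 and 153 to 387 (NKT) and 0 to 5 and 24 to 65 (T). A majority of lymphomas passed the midpoint between NK and the larger of T and NKT at 1615 members, and the lowest NK library at 322 of those with 20 NK counts, a limit chosen after seeing the data, as was leaving out the crowded windows, which kept these counts within 1.5 times. The lymphomas lay 1.2 log2 above the larger of the T and NKT means, or 0.99 to 1.89 against left-out libraries. Relative to the NK mean they lay at -0.75, and against NK libraries 1, 2 and 3 left out at 0.41, 0.22 and -0.22, which turns the direction; with 20 counts in the NK libraries used, also chosen after seeing the data, this was -0.17, -0.88 and -1.25. RLE moved the median of all peaks against NKT from 0.27 to 0.74 and cyclic loess to -0.03. Of 76 calls at members named in full, 42 passed in every alternative that tested them and 0 reversed. The cause of these shifts was not tested, beyond fewer peaks or libraries where an alternative removes them. No paired analysis was possible because the lymphomas carry no replicate numbers.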
